A study of Mus musculus with 21 samples.

Results

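The expression of 9 transcriptional regulators of stem cell identity (Hlf, Mecom, Meis1, Prdm16, Gfi1, Gfi1b, Myb, Hhex and Mycn) was examined in hematopoietic cells derived from mouse pluripotent stem cells. The 9 genes were taken by name, as regulators known for hematopoietic stem cells (HSCs), out of 27968 genes in the sorted-cell data and 19321 genes with values in the coculture data. RNA-seq of 21 libraries was used, with 3 replicates in each of 7 groups. The study derived HSC-like cells with a 3D self-assembling peptide system followed by coculture with OP9 cells, a mouse stromal line, and set them beside HSCs of the mouse.

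In the coculture data, total cells were taken on day 5 from 3D+OP9 and from 3D+0.1%gelatin, in which the stromal layer was replaced by a coating of 0.1% gelatin. Both arms started from blood-like colonies formed in the 3D stage. The coculture with OP9 received SCF, IL-3 and Flt3 ligand, and the medium of 3D+0.1%gelatin is not given in the sources used here. The OP9 cells were treated with mitomycin C, and the total cells were not sorted, so RNA of OP9 cells may be present in 3D+OP9. In the sorted-cell data, mESC were embryonic stem cells sorted on SSEA-1. They and all cultured cells are labelled 129/ola, while the study's methods name stem cells of both 129/ola and C57BL/6. D5-LSKCD201+ and D5-LSKCD201- were Lin-Sca-1+c-kit+ cells with and without CD201 (EPCR, the product of Procr), sorted from 3D+OP9 on day 5 of coculture. BM-LSKCD201+ came from bone marrow of C57BL/6 mice, 6 to 8 weeks old. FL-LSKCD201+ came from fetal liver of C57BL/6 embryos at E12.5. By the labels the strain changes together with the source, so that strain and source cannot be told apart in any comparison with cells from mice.

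Hlf encodes a PAR bZIP factor that marks HSCs and is known for keeping them quiescent. Mecom (the locus of EVI1 and of the longer form MDS1-EVI1) and Prdm16 encode related zinc finger proteins of the PR domain family, and both are needed for HSC maintenance. Meis1 encodes a TALE homeodomain cofactor of HOX proteins, and Hhex a homeodomain protein of early blood, endothelium and liver. Gfi1 and Gfi1b encode closely related zinc finger repressors that switch off endothelial genes when blood cells emerge from hemogenic endothelium, and Gfi1b is also used by erythroid cells and megakaryocytes. Myb encodes a DNA-binding factor needed for definitive hematopoiesis, and Mycn a MYC family factor that is abundant in embryonic stem cells and shared with Myc in HSCs. Mecom, Meis1 and Hhex are also known from endothelium.

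Values are FPKM, which correct reads for the length of the transcript and the size of the library, and they summed to between 483263 and 620332 per library. The depth is unknown. Procr, Kit and Ly6a, the genes of the LSKCD201+ sort, were read in all 15 sorted libraries, although mESC were sorted on SSEA-1. Their sum was 9.92 to 11.4 FPKM in mESC and 58.5 to 69.1 in D5-LSKCD201-. It was 162 to 171 in D5-LSKCD201+, 146 to 180.5 in FL-LSKCD201+ and 425 to 460 in BM-LSKCD201+. Procr by itself averaged 2.40 FPKM in mESC and 3.48 in D5-LSKCD201-, against 120 in BM-LSKCD201+. In 4 groups a library stood apart, with Euclidean distances on log2(FPKM + 1) of 52.2 to 54.6 from FL-LSKCD201+ replicate 1 to the other two replicates, 50.1 to 51.5 from D5-LSKCD201- replicate 2, 40.4 to 40.8 from BM-LSKCD201+ replicate 1 and 47.7 to 48.9 from 3D+OP9 replicate 3. The remaining pair of replicates in these groups lay at 16.7 to 19.4. The study calls the replicates of sorted cells biological, and its caption for the CD201+ and CD201- values names independent experiments. The labels do not say that replicates were separate cultures or animals, so p-values measure only the spread between these libraries.

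Marker genes of other cell types moved with the groups, and these values stand beside all results in the sorted cells. The sum over 8 endothelial genes was 1608 to 1647 FPKM in D5-LSKCD201+, against 56.6 to 60.7 in mESC, 110.1 to 116 in D5-LSKCD201-, 405 to 447 in FL-LSKCD201+ and 354 to 399 in BM-LSKCD201+. Cdh5, which encodes VE-cadherin, measured 70.8 ± 3.02 FPKM (SD, n = 3) for D5-LSKCD201+ and 0.0359 ± 0.0328 in BM-LSKCD201+. The sum over 9 pan-hematopoietic genes was 99.6 to 104 FPKM in D5-LSKCD201+, against 23.8 to 25.8 in mESC, 23.4 to 25.6 in D5-LSKCD201-, 1226 to 1450 in FL-LSKCD201+ and 1575 to 1777 in BM-LSKCD201+. Ptprc, which encodes CD45, was at 0.409 ± 0.167 FPKM for D5-LSKCD201+, 0.633 ± 0.269 for D5-LSKCD201-, 43.5 ± 7.54 in FL-LSKCD201+ and 66.8 ± 4.21 in BM-LSKCD201+, so the defining marker of blood cells was low in both groups sorted on day 5. Itga2b, which encodes CD41 of early hematopoietic progenitors, was at 45.2 ± 0.641 FPKM in D5-LSKCD201+, above 11.6 ± 0.272 in BM-LSKCD201+. The sum over 8 pluripotency genes was 6491 to 7049 FPKM in mESC, 3581 to 3998 in D5-LSKCD201- and 34.3 to 42.6 in D5-LSKCD201+, against 5.54 to 10.45 in FL-LSKCD201+ and 0 to 10.4 in BM-LSKCD201+. The sum over 6 endoderm genes was 136 to 148 FPKM in D5-LSKCD201+ and 142 to 154 in D5-LSKCD201-, against 1.72 to 1.82 in mESC, 8.20 to 10.4 in FL-LSKCD201+ and 10.5 to 11.4 in BM-LSKCD201+. In both groups sorted on day 5 most of this sum came from Sox17, which arterial endothelium also uses. Only 2 of the 6 genes averaged 1 FPKM or more in D5-LSKCD201+, against 6 of 6 in D5-LSKCD201-. The sum over 8 stromal genes was 86.8 to 92.2 FPKM in D5-LSKCD201+ and 37.7 to 71.7 in D5-LSKCD201-, against 7.5 to 8.89 in mESC, 1.25 to 4.68 in FL-LSKCD201+ and 3.97 to 5.35 in BM-LSKCD201+. The sum over 6 myeloid genes was 5.56 to 6.11 FPKM in D5-LSKCD201+, against 1556 to 1681 in FL-LSKCD201+ and 307 to 412 in BM-LSKCD201+. None of the endothelial, pan-hematopoietic or pluripotency genes was listed at 0 in every library of a sorted group. The part of these cell types in the levels of the 9 regulators was not tested. In bulk libraries, fewer cells of a type and less RNA per cell cannot be told apart.

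**Figure D1:**
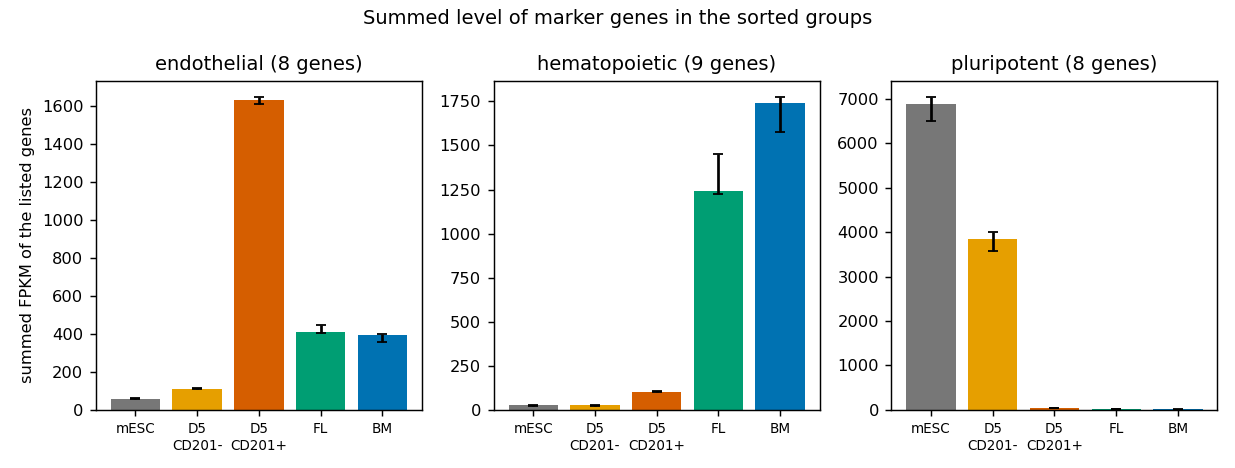
Summed FPKM of marker genes on a linear axis from 0 in the 5 sorted groups, in a panel each for 8 endothelial, 9 pan-hematopoietic and 8 pluripotency genes. Bars are the median of 3 replicates and error bars the lowest and highest replicate. D5-LSKCD201+ has the tallest endothelial bar, the cells from mice the tallest hematopoietic bars, and D5-LSKCD201- keeps a pluripotency bar of 3581 to 3998 FPKM.

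The 9 regulators fell into different levels in D5-LSKCD201+. Mecom was close to its level in cells from mice, Hhex and Meis1 were between mESC and cells from mice, and Hlf, Prdm16, Gfi1, Gfi1b and Myb were at or below 1.34 FPKM in every library. Mycn was lowest in D5-LSKCD201+ of all 5 groups.

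**Figure D2:**
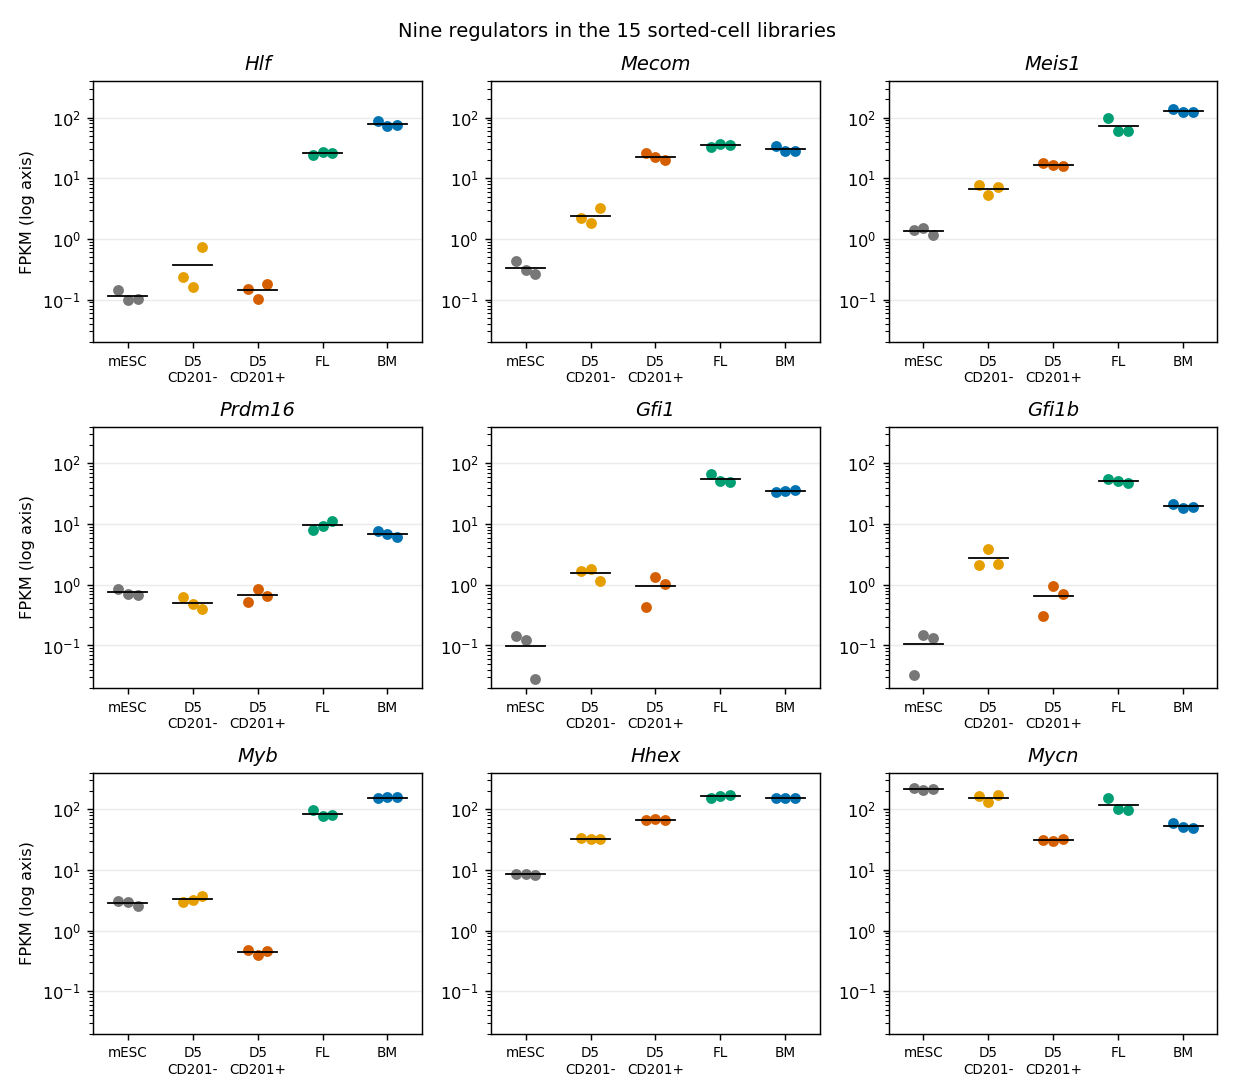
FPKM of each regulator on a log axis in the 15 sorted libraries, with a panel per gene. Points are single libraries and the black line is the mean of 3 replicates. Mecom reaches 20.2 to 25.8 FPKM in D5-LSKCD201+, while Hlf stays at 0.104 to 0.183 there and at 24.2 to 86.3 in the cells from mice.

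Mecom was at 0.430, 0.312 and 0.262 FPKM in mESC, 2.19, 1.80 and 3.28 in the D5-LSKCD201- libraries, 25.8, 22.4 and 20.2 in D5-LSKCD201+, 33.2, 36.2 and 34.7 in FL-LSKCD201+ and 34.4, 28.6 and 28.0 in BM-LSKCD201+ (replicates 1, 2 and 3). The values of D5-LSKCD201+ lay above all values of D5-LSKCD201- and mESC and below all values of the cells from mice, and only FL-LSKCD201+ and BM-LSKCD201+ overlapped. Values are per gene, so the short EVI1 form and the long MDS1-EVI1 form of the locus (chr3:29951296-30548008, GRCm38) were not separated.

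Meis1 was at 1.41, 1.53 and 1.17 FPKM in mESC, 7.76, 5.28 and 7.27 in the D5-LSKCD201- libraries, 18.2, 16.5 and 15.7 in D5-LSKCD201+, 99.8, 59.5 and 60.5 in FL-LSKCD201+ and 140.6, 121 and 123 in BM-LSKCD201+. Hhex was at 8.45, 8.45 and 8.39 FPKM in mESC, 33.8, 31.8 and 32.5 in the D5-LSKCD201- libraries, 66.0, 67.7 and 66.4 in D5-LSKCD201+, 156, 167 and 168 in FL-LSKCD201+ and 151, 155 and 153 in BM-LSKCD201+. For both genes the groups followed the order mESC, D5-LSKCD201-, D5-LSKCD201+ and then the cells from mice, with no overlap between any of the 5 groups. FL-LSKCD201+ replicate 1, the library that stood apart, carried the highest Meis1 value of its group.

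Hlf was at 0.144, 0.0991 and 0.101 FPKM in mESC, 0.238, 0.163 and 0.732 in the D5-LSKCD201- libraries, 0.148, 0.104 and 0.183 in D5-LSKCD201+, 24.2, 26.7 and 26.0 in FL-LSKCD201+ and 86.3, 72.9 and 75.9 in BM-LSKCD201+. The 2 groups sorted on day 5 overlapped, D5-LSKCD201+ also overlapped mESC, and every library from mice was far above them. D5-LSKCD201- replicate 3 was the highest of the 9 libraries of cultured cells.

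Prdm16 was at 0.861, 0.713 and 0.675 FPKM in mESC, 0.633, 0.484 and 0.398 in the D5-LSKCD201- libraries, 0.514, 0.862 and 0.648 in D5-LSKCD201+, 8.07, 9.44 and 11.1 in FL-LSKCD201+ and 7.58, 6.87 and 6.19 in BM-LSKCD201+. D5-LSKCD201+ overlapped both mESC and D5-LSKCD201-. The 2 PR domain regulators lay apart in D5-LSKCD201+, where the levels, scaled by transcript length, were 22.8 ± 2.84 FPKM (SD) for Mecom and 0.675 ± 0.175 for Prdm16.

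Gfi1 was at 0.145, 0.123 and 0.0278 FPKM in mESC, 1.68, 1.79 and 1.14 in the D5-LSKCD201- libraries, 0.435, 1.34 and 1.04 in D5-LSKCD201+, 67.9, 50.6 and 49.0 in FL-LSKCD201+ and 33.7, 35.3 and 36.0 in BM-LSKCD201+. Gfi1b was at 0.0328, 0.150 and 0.134 FPKM in mESC, 2.08, 3.86 and 2.20 in the D5-LSKCD201- libraries, 0.310, 0.966 and 0.714 in D5-LSKCD201+, 56.0, 50.7 and 46.9 in FL-LSKCD201+ and 21.1, 18.7 and 19.4 in BM-LSKCD201+. Gfi1 overlapped between the 2 groups sorted on day 5 and Gfi1b did not, and both repressors were lowest in replicate 1 of D5-LSKCD201+.

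Myb was at 3.04, 2.94 and 2.54 FPKM in mESC, 2.99, 3.22 and 3.73 in the D5-LSKCD201- libraries, 0.488, 0.400 and 0.457 in D5-LSKCD201+, 96.1, 77.8 and 80 in FL-LSKCD201+ and 151, 157 and 158 in BM-LSKCD201+. All 3 libraries of D5-LSKCD201+ lay below every other library, mESC included.

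Mycn was at 221, 211 and 212 FPKM in mESC, 164, 132 and 170.3 in the D5-LSKCD201- libraries, 30.5, 30.2 and 32.7 in D5-LSKCD201+, 152, 98.9 and 98.7 in FL-LSKCD201+ and 58.6, 51.0 and 49.3 in BM-LSKCD201+. D5-LSKCD201+ lay below every other library here too, and D5-LSKCD201- overlapped FL-LSKCD201+. The highest of FL-LSKCD201+ was again replicate 1.

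Differences between groups were tested with limma on log2(FPKM + 1), a scale on which folds of weakly expressed genes come out too small. Genes averaging 0.5 FPKM or more in the 6 libraries compared were tested, with Benjamini-Hochberg (BH) adjustment over all of them. A gene was called at an adjusted p under 0.05 with a log2 difference of at least 1 in either direction. An exact permutation test of 3 against 3 libraries cannot give a two-sided p below 0.1.

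D5-LSKCD201+ was first compared with D5-LSKCD201-, the comparison that asks what CD201 separates among the LSK cells of 3D+OP9. Of the 8 regulators tested, Mecom, Meis1 and Hhex were higher in D5-LSKCD201+ and Gfi1b, Myb and Mycn were lower, while Prdm16 and Gfi1 were not called and Hlf was under the expression filter. Of all 13691 genes tested, 10.8% were called higher and 13.9% lower, with a median log2 difference of -0.12, and with quantile normalization the calls went from 1475 higher and 1904 lower to 1716 and 1599. Mecom was 9.41-fold higher by the group means, with a log2 difference of 2.81 ± 0.17 (SE, limma, adjusted p = 7.86e-06), Meis1 was higher by 1.21 ± 0.14 (adjusted p = 0.000194) and Hhex by 1.01 ± 0.05 (adjusted p = 3.15e-06). On the other side, Mycn fell by 2.27 on the log2 scale (SE 0.10, limma adjusted p = 1.72e-06), Myb fell by 1.57 (SE 0.10, adjusted p = 8.25e-06) and Gfi1b fell by 1.15 (SE 0.22, adjusted p = 0.0028). None of these 6 regulators overlapped between the groups, but they were picked by the call, which makes separation likely. The share of all genes without overlap is not known here, so the separation adds nothing to the calls. Gfi1b and Hhex lay close to the fold threshold. Without D5-LSKCD201- replicate 2 the log2 differences were -0.94 for Gfi1b and 0.99 for Hhex, both under the threshold, without D5-LSKCD201+ replicate 1 it was -0.98 for Gfi1b, and without D5-LSKCD201+ replicate 2 it was 0.997 for Hhex. Quantile normalization also took Gfi1b under the fold threshold. Beside these calls, all 8 endothelial markers were called higher and all 8 pluripotency markers and 4 of 6 endoderm markers lower in D5-LSKCD201+. Of the erythroid markers tested, 2 of 4 were called lower and 1 higher, with Klf1, an erythroid factor, at 0.241 against 1.73 FPKM, and 2 of 3 megakaryocyte markers were called higher. The part of these cell types in the values of Gfi1b was not tested.

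The paralogs Gfi1 and Gfi1b were also set against each other within each library. The difference of Gfi1b minus Gfi1 on the log2(FPKM + 1) scale was -0.21 ± 0.07 (SD, n = 3) for D5-LSKCD201+, and for D5-LSKCD201- it was 0.53 ± 0.30. The values did not overlap, and the difference of -0.74 had p = 0.1 in an exact two-sided permutation test, the smallest that 3 against 3 libraries can give. In the other groups, which were not tested, single libraries ran from -0.15 to 0.14 in mESC, -0.27 to 0.0018 in FL-LSKCD201+ and -0.88 to -0.65 in BM-LSKCD201+. They ran from -0.05 to 0.04 in 3D+0.1%gelatin and from 0.62 to 1.43 in 3D+OP9. Both genes were at most 0.11 FPKM in 3D+0.1%gelatin and at most 0.15 in mESC. At such levels the added 1 draws the difference toward 0, so it does not show that the paralogs were balanced there.

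Compared with mESC, D5-LSKCD201+ was higher in 3 and lower in 2 of 7 regulators tested, and the same D5-LSKCD201+ libraries enter here. Of all 13441 genes, 19.5% were called higher and 18.1% lower. Mecom was higher by 4.15 ± 0.10 on the log2 scale (SE, limma adjusted p = 8.36e-10), or 68.2-fold by the means, Meis1 by 2.91 ± 0.09 (adjusted p = 3.02e-09) and Hhex by 2.84 ± 0.04 (adjusted p = 3.94e-11). Mycn fell by 2.74 (SE 0.04, limma adjusted p = 5.24e-11) and Myb fell by 1.40 (SE 0.08, adjusted p = 3.09e-07). Gfi1 was not called, with a log2 difference of 0.79 ± 0.16 (limma adjusted p = 0.00157), and with a pseudocount of 0.1 in place of 1 it passed the threshold at 2.33. Prdm16 was at -0.07 ± 0.10 (limma adjusted p = 0.533). Hlf and Gfi1b were under the expression filter. Beside these values, 8 of 8 endothelial markers, both endoderm markers that could be tested and 6 of 7 stromal markers were called higher in D5-LSKCD201+, and 8 of 8 pluripotency markers lower. Sox17, a factor of endoderm that arterial endothelium also uses, was at 121 FPKM in D5-LSKCD201+ against 0.599 in mESC, and Gata6, another endoderm factor, was at 19.97 against 0.364. The part of endothelial, endoderm or stromal RNA in these values was not tested.

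D5-LSKCD201- was higher than mESC in 5 of 8 regulators tested, namely Mecom, Meis1, Gfi1, Gfi1b and Hhex. It was lower in 0 by limma, with 1 lower at an unadjusted p under 0.05, while 10.9% of all 13596 genes were called higher and 3.48% lower. At that unadjusted p, 3214 of all genes were lower in a limma fit with the replicate number as a block. The log2 differences were 1.34 ± 0.16 for Mecom, 1.70 ± 0.15 for Meis1, 1.20 ± 0.12 for Gfi1, 1.72 ± 0.18 for Gfi1b and 1.84 ± 0.07 for Hhex (SE), with limma adjusted p from 1.36e-06 to 0.000403. Both repressors of the endothelial program were thus called in D5-LSKCD201- against mESC. Quantile normalization took the median of all genes from 0.05 to -0.10 and the calls from 1476 higher and 473 lower to 1104 and 741, and Gfi1 was then at 0.90, under the fold threshold. Beside these calls, 6 of 6 endoderm, 7 of 7 stromal and 5 of 8 endothelial markers were called higher and 4 of 8 pluripotency markers lower in D5-LSKCD201-, with Foxa2, a factor of endoderm and liver, at 17.9 FPKM against 0.0736 in mESC. Myb and Mycn were not called, at 0.17 ± 0.11 (limma adjusted p = 0.241) and -0.47 ± 0.10 (adjusted p = 0.00504).

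**Figure D3:**
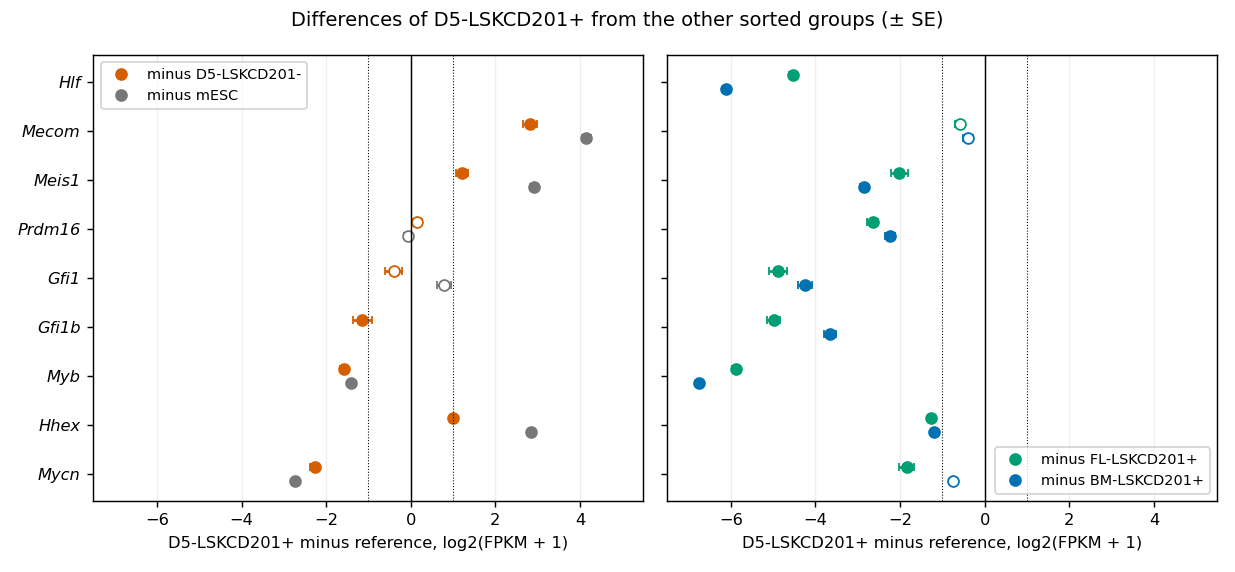
Difference of D5-LSKCD201+ from 4 other sorted groups in log2(FPKM + 1) for each regulator tested, with SE bars from limma. Filled points passed both thresholds, open points did not, and dotted lines mark the fold threshold. Mecom is at 2.81 and 4.15 against D5-LSKCD201- and mESC but at -0.59 and -0.40 against the cells from mice, while Myb is below 0 in all 4 comparisons.

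Against the cells from mice, Mecom was the only regulator that was not called lower in either comparison. In the comparison with FL-LSKCD201+, limma called 8 of 9 regulators lower in D5-LSKCD201+ and 0 higher, with 19.6% and 15.1% of all 13627 genes called in those directions. In the comparison with BM-LSKCD201+, limma called 7 of 9 lower and 0 higher, with 27.2% and 17.5% of all 13775 genes. At an unadjusted p under 0.05, 9 of 9 were lower and 0 higher in each of these comparisons, which share the D5-LSKCD201+ libraries. Being lower at that p was common among all genes. With the replicate number as a block in the fit, limma gave 5728 of 13627 lower and 4095 higher against FL-LSKCD201+. Against BM-LSKCD201+ it gave 6749 of 13775 lower and 4701 higher. The median log2 difference over the 9 regulators was -2.65 against FL-LSKCD201+ and -2.86 against BM-LSKCD201+, while the median of all genes was -0.16 and -0.23. Beside these calls, 7 of 7 erythroid, 6 of 6 myeloid and 8 of 8 hepatocyte markers were called lower in D5-LSKCD201+ than in FL-LSKCD201+, with median log2 differences of -5.42, -7.24 and -4.63. In both comparisons 8 of 9 pan-hematopoietic markers were called lower, and 7 of 8 endothelial markers were called higher against FL-LSKCD201+ and 8 of 8 against BM-LSKCD201+. Stromal markers were called higher in both comparisons, 6 of 7 tested. Pluripotency markers were called higher in 4 of 5 tested against FL-LSKCD201+ and in 5 of 5 against BM-LSKCD201+. In each comparison 2 of 3 endoderm markers tested were called higher and 1 lower. Against BM-LSKCD201+, 3 of 4 erythroid, 2 of 4 myeloid and 2 of 3 hepatocyte markers tested were called lower. The erythroid marker Epor was called higher there, at 17.6 against 1.76 FPKM.

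Mecom reached 65.7% ± 8.18 (SD, n = 3) of the FL-LSKCD201+ mean and 75.2% ± 9.36 of the BM-LSKCD201+ mean. Its log2 differences were -0.59 ± 0.10 (SE, limma adjusted p = 0.00154) and -0.40 ± 0.11 (adjusted p = 0.0112), both under the fold threshold, so that with the adjusted p alone Mecom would be called lower in both comparisons. Hhex reached 40.8% ± 0.543 of the FL-LSKCD201+ mean, with a log2 difference of -1.28 (limma adjusted p = 3.79e-06), and Meis1 reached 22.9% ± 1.73, with a log2 difference of -2.02 (adjusted p = 9.96e-05). Against BM-LSKCD201+ the shares were 43.5% ± 0.579 for Hhex and 13.1% ± 0.991 for Meis1. These 3 genes were those called higher than in mESC and D5-LSKCD201-.

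The remaining regulators reached small shares of the levels in mice. Hlf in D5-LSKCD201+ was at 0.565% ± 0.153 of the FL-LSKCD201+ mean and at 0.185% ± 0.05 of the BM-LSKCD201+ mean, with log2 differences of -4.54 (limma adjusted p = 5.21e-08) and -6.11 (adjusted p = 2.49e-09). Myb was at 0.530% ± 0.0529 of FL-LSKCD201+ and 0.288% ± 0.0288 of BM-LSKCD201+, with log2 differences of -5.88 (limma adjusted p = 4.68e-08) and -6.76 (adjusted p = 7.38e-10). Gfi1 was at 1.68% ± 0.824 and Gfi1b at 1.3% ± 0.646 of the FL-LSKCD201+ mean, and Prdm16 was at 7.07% ± 1.84. Of these, Prdm16 and Hlf overlapped mESC as well. D5-LSKCD201- was higher than D5-LSKCD201+ in its share of FL-LSKCD201+ for Myb, at 3.92% ± 0.446, and for Gfi1b, at 5.30% ± 1.94.

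Mycn was at 26.7% ± 1.16 of the FL-LSKCD201+ mean, a log2 difference of -1.84 (limma adjusted p = 7.27e-05). Against BM-LSKCD201+ it was at 58.8% ± 2.56, with a log2 difference of -0.74 ± 0.07 (SE, limma adjusted p = 4.71e-05) that was under the fold threshold although the libraries did not overlap.

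**Figure D4:**
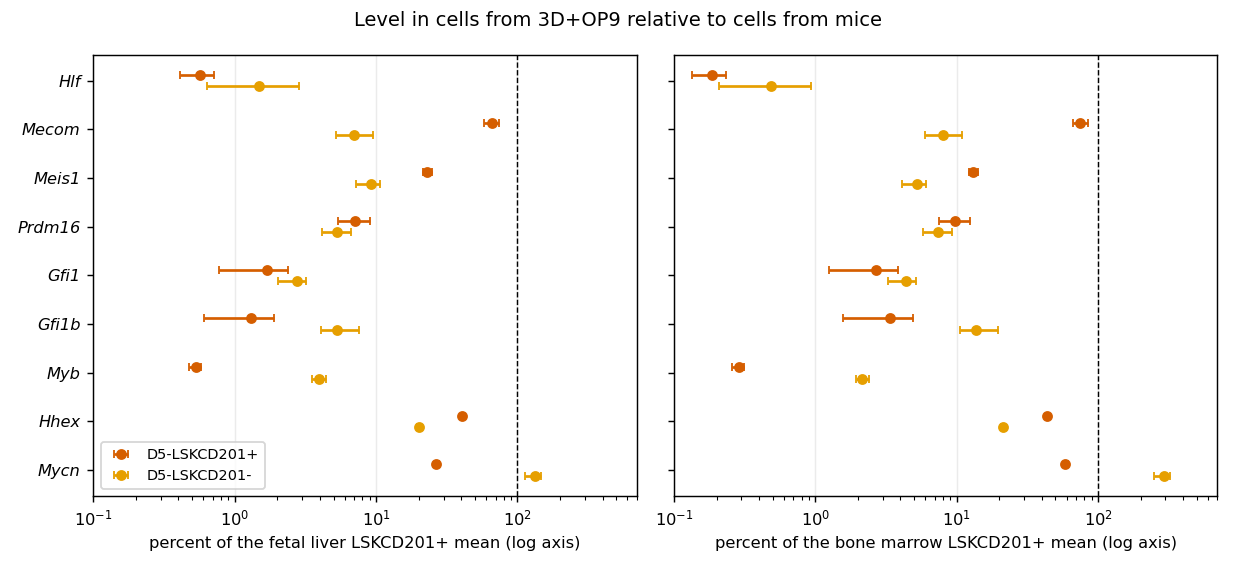
Level of each regulator in D5-LSKCD201+ and D5-LSKCD201- as a percentage of the mean of FL-LSKCD201+ on the left and of BM-LSKCD201+ on the right, on log axes. Points are means of 3 replicates, bars run from the lowest to the highest replicate, and the dashed line marks 100%. In D5-LSKCD201+, Mecom lies nearest to the line at 65.7% and 75.2%, and Hlf and Myb lie furthest away, under 1% on both sides.

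Between the cells from mice, Gfi1b and Mycn were higher and Hlf was lower in FL-LSKCD201+ than in BM-LSKCD201+, 3 of 9 regulators tested, while 7.78% of all 13503 genes were called higher and 11.3% lower. Hlf was 3.06-fold higher in BM-LSKCD201+ by the means, a log2 difference of -1.57 ± 0.10 (SE, limma adjusted p = 1.91e-05). Gfi1b was 2.59-fold higher in FL-LSKCD201+, a log2 difference of 1.33 ± 0.10 (limma adjusted p = 4.47e-05), and Mycn was higher by 1.10 ± 0.18 (adjusted p = 0.00171). Mycn depended on FL-LSKCD201+ replicate 1, without which its log2 difference was 0.89, under the threshold. Meis1 moved the other way, from -0.84 ± 0.20 (limma adjusted p = 0.00983, not called) to -1.08 without that library. Myb at -0.88 ± 0.10 (limma adjusted p = 0.000385), Gfi1 at 0.64 ± 0.13 (adjusted p = 0.00516) and Prdm16 at 0.41 ± 0.14 (adjusted p = 0.0383) were under the fold threshold, and with the adjusted p alone 7 regulators would pass. Mecom and Hhex were not called, at 0.19 ± 0.10 (limma adjusted p = 0.153) and 0.09 ± 0.08 (adjusted p = 0.376). Beside these values, 7 of 7 erythroid markers, 5 of 6 myeloid markers and 7 of 8 hepatocyte markers were called higher in FL-LSKCD201+. The erythroid sum was 4885 to 10917 FPKM in FL-LSKCD201+, lowest in replicate 1, and 68.3 to 96.3 in BM-LSKCD201+. The fetal liver libraries also held Alb at 68.8 ± 5.38 FPKM, against 0.0411 ± 0.0412 in BM-LSKCD201+. The part of erythroid, myeloid or liver RNA in the values of the regulators was not tested.

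In the order of the group means, several neighbours were not told apart. For Prdm16, mESC, D5-LSKCD201+ and D5-LSKCD201- followed each other without a call, at log2 differences of 0.07 ± 0.10 (SE, limma adjusted p = 0.533) and 0.15 ± 0.11 (adjusted p = 0.249). For Gfi1, D5-LSKCD201- was above D5-LSKCD201+ by 0.41 ± 0.20 (limma adjusted p = 0.107). For Myb, D5-LSKCD201- was above mESC by 0.17 ± 0.11 (limma adjusted p = 0.241). For Mycn, D5-LSKCD201- was above FL-LSKCD201+ by 0.43 ± 0.20 (limma adjusted p = 0.0905).

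Next, the unsorted cells of 3D+OP9 were compared with those of 3D+0.1%gelatin, the comparison that asks what the stromal layer adds. Gfi1b, Meis1 and Hhex were higher in 3D+OP9, 3 of 7 regulators tested, and limma called 0 lower, with 0 lower at an unadjusted p under 0.05 as well, while 2.11% of all 12958 genes were called higher and 0.509% lower. At that unadjusted p, 1443 of all genes were lower in a limma fit with the replicate number as a block. Gfi1b was at 2.14, 2.96 and 2.53 FPKM in 3D+OP9 and at 0.09, 0.06 and 0.11 in 3D+0.1%gelatin, 29.3-fold by the means and 1.70 ± 0.13 on the log2 scale (SE, limma adjusted p = 0.000838). Meis1 was at 4.30, 4.38 and 3.37 FPKM in 3D+OP9 and at 0.84, 1.18 and 1.06 in 3D+0.1%gelatin, 3.91-fold by the means and 1.3 ± 0.14 on the log2 scale (limma adjusted p = 0.00276). Hhex was at 11.95, 12.65 and 8.81 FPKM in 3D+OP9 and at 6.04, 4.06 and 3.49 in 3D+0.1%gelatin, 2.46-fold by the means and 1.15 ± 0.20 on the log2 scale (limma adjusted p = 0.0169). The libraries of both arms did not overlap for any of these 3 genes, which were picked by the call. The share of all genes without overlap is not known here, so this adds nothing to the calls. Averaging the closest pair of replicates left Gfi1b as the call, with limma adjusted p of 0.0557 for Meis1 and 0.199 for Hhex. The call of Hhex also depended on single libraries, with limma adjusted p of 0.0721, 0.0731, 0.0918 and 0.0564 without 3D+OP9 replicate 1, 3D+OP9 replicate 2, 3D+0.1%gelatin replicate 2 and 3D+0.1%gelatin replicate 3.

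Mecom was at 1.56, 2.11 and 1.80 FPKM in 3D+OP9 and at 0.65, 0.76 and 0.48 in 3D+0.1%gelatin. The arms did not overlap, and the log2 difference of 0.79 ± 0.13 (SE, limma adjusted p = 0.0143) was under the fold threshold, although it was 1.41 with a pseudocount of 0.1. Gfi1 was at 1.05, 0.47 and 0.49 FPKM in 3D+OP9 and at 0.08, 0.10 and 0.08 in 3D+0.1%gelatin, 7.73-fold by the means, and was under the expression filter, as was Prdm16 at 0.03 to 0.18 FPKM. Neither gene was tested. Gfi1 was higher in all libraries of 3D+OP9 than in any of 3D+0.1%gelatin. Prdm16 was at 0.07 to 0.18 FPKM in 3D+OP9 and at 0.03 to 0.06 in 3D+0.1%gelatin. These are levels near 0 in values rounded to 2 decimals, so the order of the arms is not read as a difference for Prdm16.

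Hlf was at 0.42, 0.37 and 0.59 FPKM in 3D+OP9 and at 0.41, 0.64 and 0.67 in 3D+0.1%gelatin, overlapping, with a log2 difference of -0.11 ± 0.13 (SE, limma adjusted p = 0.679). Myb was at 4.14, 4.78 and 11.56 FPKM in 3D+OP9 and at 3.79, 4 and 4.61 in 3D+0.1%gelatin (limma adjusted p = 0.404). Mycn was at 72.65, 76.81 and 86.0 FPKM in 3D+OP9 and at 73.0, 53.14 and 35.32 in 3D+0.1%gelatin (limma adjusted p = 0.182). The highest Myb and Mycn values belonged to 3D+OP9 replicate 3, the library that stood apart. The pluripotency sum was 1398 FPKM in that library, 797 and 802 in the other libraries of 3D+OP9 and 1181 to 1276 in 3D+0.1%gelatin, and 2 of 8 pluripotency markers, Esrrb and Zfp42, were called higher in 3D+OP9. Beside these values, 7 of 8 endothelial markers and 3 of 4 pan-hematopoietic markers tested were called higher in 3D+OP9, with endothelial sums of 119 to 143 FPKM against 27.6 to 40.9. The sums of the 8 stromal markers were 65.4 to 71.4 FPKM against 41.0 to 51.2, and those of the 7 erythroid markers 37.8 to 93.9 against 4.54 to 7.99. Those of the megakaryocyte markers were 4.78 to 4.93 FPKM against 0.52 to 0.64, and 1 of 2 tested, Itgb3, was called higher. The part of endothelial, erythroid, megakaryocyte or OP9 RNA in these values was not tested.

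**Figure D5:**
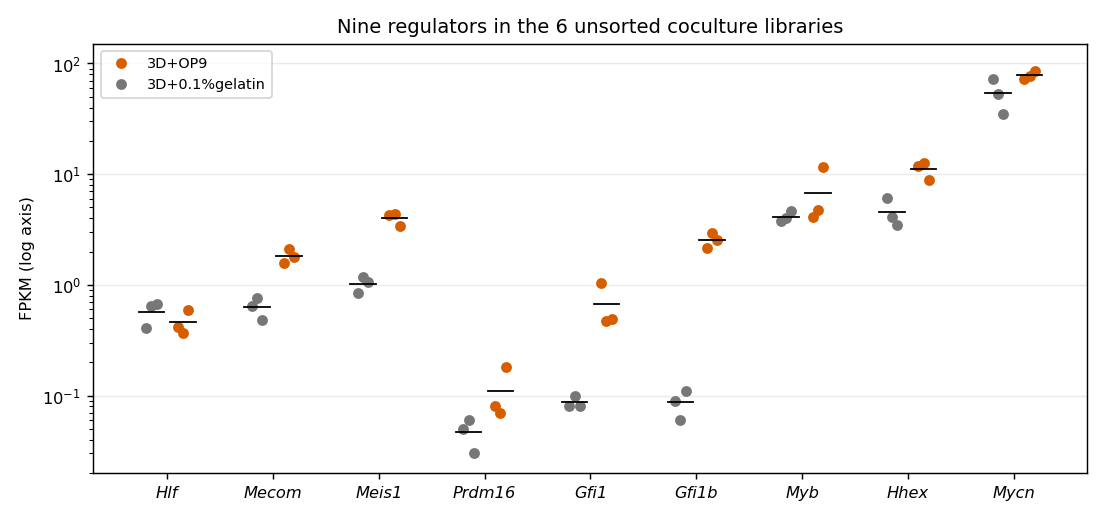
FPKM of each regulator on a log axis in 3 libraries of 3D+OP9 and 3 libraries of 3D+0.1%gelatin, total cells on day 5. Points are libraries and black lines are means. Gfi1b lies at 2.14 to 2.96 against 0.06 to 0.11 FPKM, while Hlf overlaps between the arms.

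Meis1 and Hhex were called higher both in 3D+OP9 and in D5-LSKCD201+ against mESC, and their promoters are shown beside that of Hlf, which was not. Sequences are from RefSeq (GRCm38.p6), which held 11 start sites for the 9 genes, and each window was read along the gene's strand. Of the 250 bases before the RefSeq start, those that lie before the GENCODE M21 gene are printed 5′ to 3′. The windows are chr11:19018986-19019219 on the minus strand for Meis1, chr19:37434591-37434809 on the plus strand for Hhex and chr11:90390918-90391167 on the minus strand for Hlf. Capitals mark matches on either strand to any of 6 motifs, namely the motif AGATAA of GATA factors, the E-box CANNTG, the RUNX motif TGTGGT, the ETS motif AGGAAG, the MEIS motif TGACAG and the MYB motif CAACTG, of which the last is also an E-box.
Meis1: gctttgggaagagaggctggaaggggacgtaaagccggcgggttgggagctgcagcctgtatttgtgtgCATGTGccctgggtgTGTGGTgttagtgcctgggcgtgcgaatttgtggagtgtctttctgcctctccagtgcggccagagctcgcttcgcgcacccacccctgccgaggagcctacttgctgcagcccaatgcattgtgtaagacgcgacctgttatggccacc
Hhex: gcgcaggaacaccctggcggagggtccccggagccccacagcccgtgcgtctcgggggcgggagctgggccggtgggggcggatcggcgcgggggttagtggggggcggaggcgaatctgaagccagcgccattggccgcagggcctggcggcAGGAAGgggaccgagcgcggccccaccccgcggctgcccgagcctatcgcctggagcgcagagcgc
Hlf: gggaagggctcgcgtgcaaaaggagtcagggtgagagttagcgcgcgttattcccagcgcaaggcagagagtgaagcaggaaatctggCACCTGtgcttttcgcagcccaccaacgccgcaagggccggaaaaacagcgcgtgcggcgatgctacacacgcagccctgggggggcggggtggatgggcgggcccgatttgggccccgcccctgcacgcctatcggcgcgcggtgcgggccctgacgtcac
The Meis1 window held an E-box and a RUNX motif starting 181 and 166 bases before the RefSeq start, that of Hhex an ETS motif starting 97 bases before it, and that of Hlf an E-box starting 162 bases before it. Of 32851 promoter windows of 250 bases, 66.2% held an E-box, 29.5% the ETS, 15.9% the MEIS, 14% the RUNX, 11.1% the MYB and 9.99% the GATA motif. Of the 11 windows of the 9 regulators, 7 held an E-box, 2 the ETS motif, 1 the RUNX and 1 the MEIS motif, and 0 the GATA or MYB motif. The window with the MEIS motif lay before the inner of the 2 Mecom starts. A match describes letters only, since no binding was measured, and no match says only that these letters are not in the window.

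Genes that act beside the 9 regulators were read from the same tests, by lists written by hand. Their counts stand beside the shares of all genes called higher and lower, which were 10.8% and 13.9% in D5-LSKCD201+ against D5-LSKCD201-, 15.1% and 19.6% against FL-LSKCD201+, 17.5% and 27.2% against BM-LSKCD201+, and 2.11% and 0.509% in 3D+OP9 against 3D+0.1%gelatin. The medians of all genes in these comparisons were -0.12, -0.16, -0.23 and 0.01. Of 21 other stem cell transcription factors tested between D5-LSKCD201+ and D5-LSKCD201-, limma called 9 higher and 1 lower, with a median log2 difference of 0.40. The largest differences were those of Fli1 at 3.57 ± 0.12 (SE, limma adjusted p = 4.49e-07) and Lyl1 at 3.34 ± 0.15 (adjusted p = 1.67e-06), an ETS factor of blood and endothelium and a relative of the stem cell factor Tal1. The factor that fell was Runx1, needed for the emergence of blood cells from endothelium, at 1.80 against 5.39 FPKM and -1.19 ± 0.15 (limma adjusted p = 0.000309). Against FL-LSKCD201+, 16 of 23 of these factors were lower in D5-LSKCD201+ and 1 was higher, with a median of -3.33, and against BM-LSKCD201+ 17 of 23 were lower, with a median of -3.70. Nkx2-3 and Hoxa9 had the largest differences, at 0.778 and 1.24 FPKM in D5-LSKCD201+ against 60.2 and 73.1 in FL-LSKCD201+, and Tcf15 was the factor called higher, at 27.5 against 6.77 FPKM. In the coculture data, 8 of 19 were higher in 3D+OP9, led by Tal1 at 2.19 ± 0.23 (SE, limma adjusted p = 0.00279) and Erg at 2.13 ± 0.15 (adjusted p = 0.000722).

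Among genes enriched in HSCs, 9 of 17 tested were called higher and 2 lower when D5-LSKCD201+ was set against D5-LSKCD201-, led by Esam, an adhesion molecule that endothelium also expresses, at 373 against 14.9 FPKM, and Cdkn1c, the inhibitor p57 of the cell cycle, at 882 against 49.1 FPKM. Against FL-LSKCD201+, 5 of 19 were higher and 7 lower, with a median log2 difference of 0.09. Against BM-LSKCD201+, 4 of 20 were higher and 11 lower, with a median of -1.20, and with Pdzk1ip1 at 0.801 against 186 FPKM and Adgrg1 at 6.51 against 556 FPKM as the largest falls. In 3D+OP9, 6 of 15 were higher than in 3D+0.1%gelatin, with Cd34 at 2.26 ± 0.13 and Esam at 1.93 ± 0.19 on the log2 scale (SE, limma adjusted p = 0.000623 and 0.00241). The list also holds Vwf, which the study names as an endothelial gene. Endothelial markers were called higher in all 4 comparisons, 8 of 8 against D5-LSKCD201- and BM-LSKCD201+ and 7 of 8 against FL-LSKCD201+ and in 3D+OP9. The part of endothelial RNA in these values and in those of the stem cell transcription factors was not tested.

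Relatives and partners of each regulator were read in the same way. Of the TALE homeodomain genes around Meis1, 1 of 9 was called higher and 4 lower in D5-LSKCD201+ relative to D5-LSKCD201-. Meis2, the closest paralog of Meis1, was higher, at 17.2 against 6.35 FPKM, and it was at 1.06 FPKM in FL-LSKCD201+ and 0.0346 in BM-LSKCD201+, the reverse of Meis1. Meis2 was called higher in D5-LSKCD201+ than in FL-LSKCD201+, at 3.14 ± 0.10 on the log2 scale (SE, limma adjusted p = 4.21e-07), while Meis1 was called lower. Tgif1, a TALE repressor, fell by 2.44 on the log2 scale against D5-LSKCD201- (limma adjusted p = 4.49e-07), and Pbx4 fell by 1.57 (adjusted p = 0.000176).

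Of the PAR bZIP relatives of Hlf, with the related repressor Nfil3, limma called 0 of 3 between D5-LSKCD201+ and D5-LSKCD201-, where 2 were lower at an unadjusted p under 0.05. With the replicate block, 5484 of all 13691 genes were lower at that p by limma. Against BM-LSKCD201+, Dbp at 6.71 against 43.8 FPKM and Tef at 2.77 against 10.2 FPKM were lower, 2 of 3 relatives, where 27.2% of all genes were lower. Against FL-LSKCD201+, Tef alone was lower, 1 of 3 relatives, where 19.6% of all genes were lower. Of the PRDM family, 3 of 10 were called lower in D5-LSKCD201+ relative to D5-LSKCD201-, led by Prdm14 and Prdm1, factors of pluripotent and germ cells, at 0.0439 against 7.98 and 0.651 against 5.53 FPKM.

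Of the GFI1 corepressors, which carry out repression for Gfi1 and Gfi1b, 2 of 12 were called lower in D5-LSKCD201+ relative to D5-LSKCD201-, namely Rcor2 at 8.49 against 44.6 FPKM and Gse1 at 0.905 against 3.66 FPKM, a share near that of all genes. All 12 were tested in every comparison, and their median against FL-LSKCD201+ was -0.41 against -0.16 for all genes, while the log2 differences of Gfi1 and Gfi1b themselves were -4.89 and -4.99. Of the MYB family and coactivators, 1 of 5 was lower, Mybl2 of proliferating cells, at 19.3 against 147 FPKM, in the direction of Myb. Kmt2a and Crebbp, a chromatin regulator and a coactivator of Myb, were at 0.702 and 3.51 FPKM in D5-LSKCD201+ against 3.90 and 11.7 in FL-LSKCD201+, both called lower.

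Of 10 genes of the MYC network tested, 2 were called higher and 1 lower in D5-LSKCD201+ relative to D5-LSKCD201-. Myc rose to 93.6 from 37.9 FPKM, a log2 difference of 1.29 ± 0.07 (SE, limma adjusted p = 3.69e-06), and Mxd4, a repressor of MYC targets, to 9.47 from 2.44 FPKM, while Mycl fell to 0.507 from 28.0 FPKM. In D5-LSKCD201+ the level of Myc, scaled by transcript length, was above that of Mycn, at 93.6 against 31.2 FPKM, and in D5-LSKCD201- it was below, at 37.9 against 155 FPKM. In 3D+OP9 against 3D+0.1%gelatin, limma called 0 genes of the PAR bZIP, TALE, PRDM, GFI1 corepressor, MYB and MYC lists in either direction. At an unadjusted p under 0.05, 1 TALE, 4 PRDM, 2 corepressor and 1 MYB list genes were higher, and 1 TALE gene and 1 corepressor were lower. With the replicate block, 1820 of all 12958 genes were higher and 1443 lower at that p by limma.

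Finally, genes with a pattern like that of Hlf, Mecom and Meis1 were sought over the 15 sorted libraries, by Pearson's r of log2(FPKM + 1) among 10764 genes that averaged 0.5 FPKM or more and had a range of group means of at least 1 on the log2 scale. The libraries share their groups, so r mostly follows the group means and is given as a description. Nearest to Hlf were Flt3 (r = 0.999), Ptpn22 (0.999), Ramp1 (0.999), Nkg7 (0.998) and Lax1 (0.998), which had means of 0.113 to 0.362 FPKM in D5-LSKCD201+ and 9.60 to 67.4 in FL-LSKCD201+. Flt3, the receptor of the Flt3 ligand in the culture medium, was at 0.160 FPKM in D5-LSKCD201+, 50.9 in FL-LSKCD201+ and 242 in BM-LSKCD201+. Nearest to Mecom were Rhog (0.994), Lyl1 (0.993), Capg (0.992), Casp8 (0.991) and Selenop (0.991), all of which had means of 46.2 to 149 FPKM in D5-LSKCD201+ and at least 77.4 in FL-LSKCD201+. Among the nearest to Meis1 were Fam134a (0.997), Zfp608 (0.994), Deaf1 (0.994) and Rgs2 (0.992). Between the 9 regulators themselves, r was highest for Gfi1 with Gfi1b (0.984), Hlf with Myb (0.977), Prdm16 with Gfi1 (0.969), Meis1 with Hhex (0.968) and Mecom with Hhex (0.960), and it was negative for Mycn with each of the other 8, from -0.74 with Mecom to -0.03 with Myb.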

How the data were processed

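Total cells and sorted cells were sequenced in 21 libraries, grouped by their labels. Per the study's methods, reads of mRNA libraries (Illumina HiSeq) were aligned to GRCm38 with HISAT2 2.0.5, assembled with StringTie 1.3.3 and tested with Cuffdiff 1.3.0 (versions from the submitters' processing notes, which also name mm9 with no role given). The authors deposited FPKM per gene in a table for the 6 coculture libraries, rounded to 2 decimals, and another for the 15 sorted libraries, normalized separately, so each test stayed within a table. Of 22899 genes listed for the coculture, 3578 were blank in all libraries. No counts were used, and the depth is unknown. The positions are from GENCODE M21.

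Here, log2(FPKM + 1) was tested with limma 3.58.1 (trend, two-sided) in R 4.3.3 for each pair of groups, with BH adjustment, after a filter at a mean of 0.5 FPKM. Each test was repeated with the replicate block, in a joint fit of the 5 sorted groups, with quantile normalization, a constant prior variance, a pseudocount of 0.1, a filter of 1 FPKM or none, the adjusted p alone, the closest pair of replicates averaged, and each library left out. The code was tested on simulated data. Named genes were all 9 regulators, per list and comparison at most 2 called genes in each direction with the largest differences, the 5 genes with the highest r, and markers. The genes and lists were chosen with earlier results of these data known. Same-numbered replicates deviated together between FL-LSKCD201+ and BM-LSKCD201+, with r of 0.167 to 0.248 across genes. One gene of a hand-written list and one among those nearest to Meis1 are not reported here. Python 3.11.15 with matplotlib 3.10.9 gave the figures.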

Additional observations from a re-analysis of the deposited data

How the results depend on the processing

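Of the recomputed differences of single regulators, held to both thresholds, 763 kept their direction and their side of the thresholds, 13 lost the call, 3 gained it and 2 changed sign. The sign changed for Prdm16 between D5-LSKCD201+ and mESC without D5-LSKCD201+ replicate 1, to 0.00296, in a range down to -0.15 over the libraries left out, and for Myb between D5-LSKCD201- and mESC with quantile normalization, to -0.079, and neither was called in any setting. Of the counts of called regulators, those of 3D+OP9 against 3D+0.1%gelatin went from 3 to 1 when the closest pair of replicates was averaged, with limma adjusted p of 0.0557 for Meis1 and 0.199 for Hhex, where fewer samples enter. Those of FL-LSKCD201+ against BM-LSKCD201+ went from 3 to 7 with the adjusted p alone, which gave 9 against each of FL-LSKCD201+ and BM-LSKCD201+ for D5-LSKCD201+, Mecom included, 6 for each of D5-LSKCD201+ and D5-LSKCD201- against mESC, 6 for D5-LSKCD201+ against D5-LSKCD201- and 4 for 3D+OP9 against 3D+0.1%gelatin. With the replicate block, the counts were 3 for 3D+OP9 against 3D+0.1%gelatin, 6 for D5-LSKCD201+ against D5-LSKCD201-, 5 for each of D5-LSKCD201+ and D5-LSKCD201- against mESC, 8 against FL-LSKCD201+, 7 against BM-LSKCD201+ and 3 for FL-LSKCD201+ against BM-LSKCD201+, as without it. With quantile normalization Gfi1b between D5-LSKCD201+ and D5-LSKCD201- was at -0.91, under the fold threshold, and the median of all genes moved from -0.12 to -0.01 there, from -0.16 to -0.05 against FL-LSKCD201+, from -0.23 to -0.02 against BM-LSKCD201+ and from -0.13 to -0.02 between FL-LSKCD201+ and BM-LSKCD201+. With that normalization the genes called higher and lower in D5-LSKCD201+ were 2499 and 2611 against mESC, in place of 2626 and 2430, 2314 and 2296 against FL-LSKCD201+, in place of 2054 and 2673, and 2890 and 3007 against BM-LSKCD201+, in place of 2406 and 3753. The cause of these changes was not tested. Since no depth is known, no counting error is given for levels under 1 FPKM, among them Hlf and Prdm16 in all cultured cells, Myb and Gfi1b in D5-LSKCD201+, Mecom, Gfi1 and Gfi1b in mESC, and the same genes in 3D+0.1%gelatin. The folds of 68.2 for Mecom and of 7.73 and 29.3 for Gfi1 and Gfi1b rest on such levels.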
